A study of Mus musculus with 6 samples.

Results

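The genes described here are 31 mouse genes that the transcription factor p53 is known to control, p53's own gene Trp53 among them, read on expression arrays of embryonic stem (ES) cells in which the chromatin remodeller Chd1 was targeted by a short hairpin RNA (shRNA). Members were found by gene symbol in the platform annotation: 28 of the 31 genes had a probe, and 25 had at least 1 probe detected well enough to be tested. These 28 genes had 63 of the 45281 probes on the array. Of those 63 probes, 44 were tested, and 38 of these were detected on all 6 arrays. Over the whole array, 16018 probes were tested, and they stood for 9507 named genes.

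All 6 arrays carried RNA of mouse ES cells kept with leukemia inhibitory factor and 15% foetal bovine serum on a layer of mouse embryonic fibroblasts, the feeder cells, which had been stopped from dividing with the DNA cross-linking drug mitomycin C. The 3 control samples and the 3 Chd1 shRNA samples had both been electroporated, and puromycin, which kills cells without the vector, was added after 24 h and kept on for 48 h before RNA was taken. The shRNA was carried by a pHYPER vector. The ES cell line and the content of the control vector are not given in the sources used here, nor is the number of hairpins against Chd1. Whether a group's samples were separate cultures is not stated, and p-values therefore measure only the spread between these samples, which may be technical. All arrays sat on 1 chip, each group in positions of its own, and for that reason the effects of position and group cannot be told apart.

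p53 is a transcription factor that DNA damage and other stresses stabilise, chiefly by loosening the hold of the ubiquitin ligase Mdm2. It binds DNA as a tetramer at pairs of similar half-sites and switches on genes that hold the cell cycle, start apoptosis, repair DNA, and restrain p53 itself. Mouse ES cells are known for abundant p53 and for a weak checkpoint before DNA replication, and p53 activated in them is known to lower the pluripotency factor Nanog. Fibroblasts also express p53 and respond to DNA damage with the same core targets.

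Promoter sequence is shown for the members whose RefSeq promoter (build GRCm38.p6) holds a match to the p53 half-site consensus before the most upstream annotated start, among the members that were tested. Each promoter window ran from 250 bases before to 50 bases after an annotated start, and the motif searched was the canonical p53 half-site consensus of 10 bases, which reads the same on both strands. A half-site occurred in the promoter of 9.55% of 27025 genes, and in that of 10 of the 23 members with a promoter in the table. Each stretch of 60 bases is printed 5′ to 3′ on the gene's strand, with half-sites in capitals.
Cdkn1a, chr17:29090892-29090951, plus strand: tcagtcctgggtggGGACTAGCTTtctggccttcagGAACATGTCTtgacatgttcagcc
Mdm2, chr10:117710910-117710969, minus strand: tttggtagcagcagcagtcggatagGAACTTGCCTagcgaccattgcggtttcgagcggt
Ccng1, chr11:40755437-40755496, minus strand: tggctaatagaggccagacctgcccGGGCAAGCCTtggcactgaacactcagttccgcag
Ckap2, chr8:22185988-22186047, minus strand: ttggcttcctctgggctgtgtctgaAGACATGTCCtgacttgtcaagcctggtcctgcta
Ei24, chr9:36797335-36797394, minus strand: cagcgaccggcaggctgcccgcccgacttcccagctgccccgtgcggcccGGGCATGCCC

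The Cdkn1a window held 2 half-sites, whose first bases lay 73 and 51 bases before the more upstream of its annotated starts, with 12 bases between them. Such a pair in one window occurred in 0.392% of genes. The half-site lay 186 bases before the start of Mdm2, 185 before that of Ccng1, 203 before that of Ckap2 and 10 before that of Ei24. In Ccng1 the 10 bases just before the half-site matched the consensus at 9 positions, in Cdkn1a the 10 bases just after the second half-site did so at 9, and in Ckap2 the 10 bases just after it did so at 8. Half-sites were also found for Polk, 231 bases before a more downstream start, for Sesn1, 173 bases before a more downstream start, and for Aen, between its annotated starts, and these are not shown. Those in the promoters of Trp53 and Bax are not shown because neither gene was measured under its symbol. Among the tested members with a promoter in the table, the 8 with a half-site had a median log2 fold change of 0.27, with 7 positive, and the 10 without one had a median of 0.57, with 8 positive. A match is a description of letters in this window, and known p53 sites of several members lie outside such windows.

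The targeted gene was read first as a check of the labels. Values of single samples are log2 intensities in the order of replicates 1, 2 and 3. For Chd1, the brightest probe gave 7.70, 8.81 and 6.91 in the controls against 5.95, 5.95 and 5.29 in the shRNA samples. By this probe, the level in the shRNA samples was 23.7% of control (log2 fold change -2.07, SE 0.428, limma adjusted p = 0.205), and the groups did not overlap. Other Chd1 probes gave 26.5% and 45.1% of control (log2 fold changes of -1.92 and -1.15), also without overlap. The remaining one, detected on 4 arrays, gave 92.6% (log2 fold change -0.11) with overlapping groups, so the size of the decrease depended on the probe. Between 15663 and 15925 probes were detected on each control array, and between 16285 and 17391 on each shRNA array.

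Most p53 targets read higher in the Chd1 shRNA samples, but no member passed the genome-wide test. Of the 25 tested members, 20 had a positive log2 fold change and 5 a negative one, with a median of 0.55 and a range from -0.47 for Xpc to 1.30 for Fas. This median was 0.12 with the level of fibroblast markers, which also read higher in the shRNA samples, as a covariate, and 0.31 in the authors' processed table. Over all 9507 named genes, 50.8% were positive and the median log2 fold change was 0.0057. With Benjamini-Hochberg adjustment over all probes, limma called 0 members and 0% of probes, while 1667 probes had an unadjusted p under 0.05. The smallest adjusted p of any member was 0.271, for Polk.

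At an unadjusted p under 0.05, 10 members were higher and 1 was lower, where 4.76% of all named genes were higher and 6.33% lower. These 10 were Mdm2, Trp53inp1, Cdkn1a, Plk2, Fas, Pidd1, Dram1, Phlda3, Polk and Ercc5, and the lower one was Xpc. The count of higher members was 12 without control replicate 3 and 11 without Chd1 shRNA replicate 1. It was 4 without control replicate 1, control replicate 2, Chd1 shRNA replicate 2 or Chd1 shRNA replicate 3, each left out in turn. With the fibroblast covariate it was 2, Polk and Ercc5. The share of all named genes that were higher at that threshold moved with these counts. It was 9.65% without control replicate 3 and 8.67% without Chd1 shRNA replicate 1. In the fits with a count of 4 it was between 2.37% and 3.49%. The member median was 0.30 without control replicate 2 and 0.29 without Chd1 shRNA replicate 3. The groups did not overlap for 6 members that read higher (Trp53inp1, Apaf1, Pidd1, Dram1, Polk and Ercc5) and for 2 that read lower (Bbc3 and Xpc). This is by each gene's brightest tested probe, and other tested probes of Trp53inp1, Apaf1 and Bbc3 had overlapping groups. Among all named genes, 7.03% were higher and 9.38% lower without overlap.

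**Figure D1:**
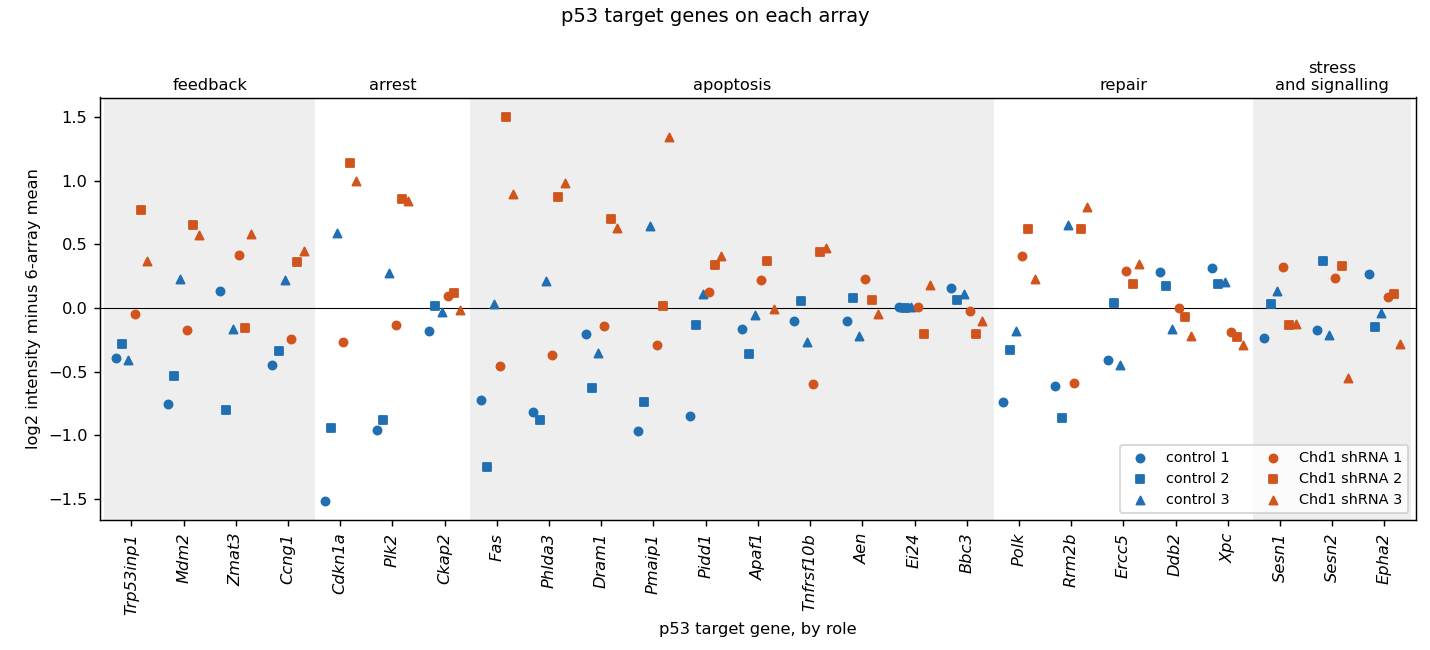
Log2 intensity of each of the 25 tested p53 targets on each array, as the difference from the gene's mean over the 6 arrays (vertical axis), with genes grouped by role (horizontal axis). Blue points are control and orange points Chd1 shRNA samples, with the marker shape giving the replicate. For Cdkn1a, Plk2 and Phlda3, control replicate 3 lies above Chd1 shRNA replicate 1, while for Polk, Ercc5 and Xpc the groups separate.

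The feedback targets, which act back on p53, all had positive log2 fold changes, with a median of 0.63 over 4 genes. Mdm2 encodes the ubiquitin ligase that marks p53 for degradation. Its probe read 11.32, 11.54 and 12.30 in the controls against 11.90, 12.73 and 12.65 in the shRNA samples. Chd1 shRNA replicates 2 and 3 were the highest samples, and replicate 1 was below control replicate 3, so the groups overlapped. The log2 fold change of Mdm2 was 0.71 (SE 0.310, 95% interval 0.0043 to 1.41), with a limma adjusted p of 0.478, and a second probe gave 0.78. The remaining Mdm2 probe was detected on 0 arrays.

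Trp53inp1 encodes a nuclear protein that promotes the phosphorylation of p53 and takes part in autophagy. It read 10.44, 10.55 and 10.42 in the controls against 10.79, 11.61 and 11.20 in the shRNA samples. The controls lay close together and all shRNA samples were above them. Its log2 fold change was 0.73 (SE 0.227, 95% interval 0.22 to 1.24, limma adjusted p = 0.362), and its other tested probe gave 0.56. Zmat3, an RNA-binding zinc-finger protein, read 8.89, 7.95 and 8.59 in the controls against 9.17, 8.60 and 9.34 in the shRNA samples. Its groups overlapped, since Chd1 shRNA replicate 2 was below control replicate 1, and its log2 fold change was 0.56 (SE 0.285, limma adjusted p = 0.516). Ccng1, cyclin G1, which recruits a phosphatase to Mdm2, had a log2 fold change of 0.38 (SE 0.256), and its other tested probes gave 0.31 and 0.93.

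The arrest targets held some of the largest differences and the widest spread within groups. Cdkn1a encodes the inhibitor of cyclin-dependent kinases through which p53 holds the cell cycle before DNA replication. It read 9.24, 9.81 and 11.35 in the controls against 10.50, 11.90 and 11.76 in the shRNA samples. Control replicate 3 was far above the other controls and above Chd1 shRNA replicate 1. The control mean was 10.13 ± 1.09 (SD, n = 3) and the shRNA mean 11.39 ± 0.774 (SD, n = 3). That is 2.38 times the control level, or a log2 fold change of 1.25 (SE 0.538, 95% interval 0.035 to 2.47, limma adjusted p = 0.474). The other tested Cdkn1a probes gave log2 fold changes of 1.24 and 1.47.

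Plk2, a polo-like kinase that p53 induces after DNA damage, read 6.57, 6.64 and 7.80 in the controls against 7.39, 8.39 and 8.37 in the shRNA samples. The order of its samples was like that of Cdkn1a, with control replicate 3 above Chd1 shRNA replicate 1. Its log2 fold change was 1.05 (SE 0.380, 95% interval 0.19 to 1.91, limma adjusted p = 0.406). Ckap2, a microtubule-associated protein of dividing cells, read 9.30, 9.50 and 9.45 in the controls against 9.57, 9.60 and 9.47 in the shRNA samples. All 6 values lay close together and the groups overlapped, with a log2 fold change of 0.13 (SE 0.167, 95% interval -0.25 to 0.51). Btg2, an antiproliferative co-regulator of mRNA decay, was detected on 0 arrays and was not tested.

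The apoptosis targets were mixed, with 8 of 10 tested genes positive and a median log2 fold change of 0.49. Fas encodes a death receptor at the cell surface. It read 5.66, 5.14 and 6.42 in the controls against 5.93, 7.89 and 7.29 in the shRNA samples. Chd1 shRNA replicates 2 and 3 were above all controls, but replicate 1 was below control replicate 3. The log2 fold change of Fas was 1.30 (SE 0.486, 95% interval 0.20 to 2.40, limma adjusted p = 0.417), or 2.46 times the control level. Its other tested probe gave a log2 fold change of 0.23, so the size for Fas depended on the probe. It also depended on the background correction, being 0.67 without one.

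Phlda3, which blocks the membrane recruitment of the survival kinase Akt, read 8.73, 8.67 and 9.76 in the controls against 9.18, 10.42 and 10.53 in the shRNA samples. Control replicate 3 again lay above Chd1 shRNA replicate 1, and the groups overlapped. Its log2 fold change was 0.99 (SE 0.405, 95% interval 0.073 to 1.91, limma adjusted p = 0.454), and its other probe gave 1.51. Pmaip1, which encodes the BH3-only protein Noxa, had a log2 fold change of 0.71 (95% interval -0.42 to 1.84), with overlapping groups.

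The remaining apoptosis members differed in size and direction. Dram1, a lysosomal membrane protein linked to autophagy, read 5.51, 5.09 and 5.37 in the controls against 5.58, 6.42 and 6.35 in the shRNA samples. Its arrays, like those of Xpc and Ercc5 in the repair group, are given because their values stood out once seen. The Dram1 groups did not overlap, although Chd1 shRNA replicate 1 was only just above the highest control, and the log2 fold change was 0.79 (SE 0.254, limma adjusted p = 0.375). Pidd1, the scaffold of the caspase-2 complex, and Apaf1, the core of the apoptosome, had log2 fold changes of 0.59 and 0.39, both without overlap. The other tested Apaf1 probes gave 0.21 and 0.20, with overlapping groups.

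Bbc3, which encodes the BH3-only protein Puma, was lower in all shRNA samples than in any control, by a log2 fold change of -0.22 (SE 0.165, limma adjusted p = 0.639), and its second probe gave -0.060. This direction depended on the scaling, since scaling arrays to a common median gave 0.10 for Bbc3 and moved the median of all probes to 0.21. The log2 fold change was 0.16 for Aen, an exonuclease induced in apoptosis, and -0.012 for Ei24, an endoplasmic reticulum protein. The other tested Aen probe gave 0.42, higher without overlap, so Aen depended on the probe. The other Ei24 probe gave -0.18, with overlapping groups. Tnfrsf10b, the mouse TRAIL receptor, had a log2 fold change of 0.21, and its tested probes ran from -0.29 to 0.28. Perp, a membrane protein of desmosomes, was detected on 0 arrays and Eda2r, a receptor of the tumour necrosis factor family, on 1 array, so neither was tested.

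**Figure D2:**
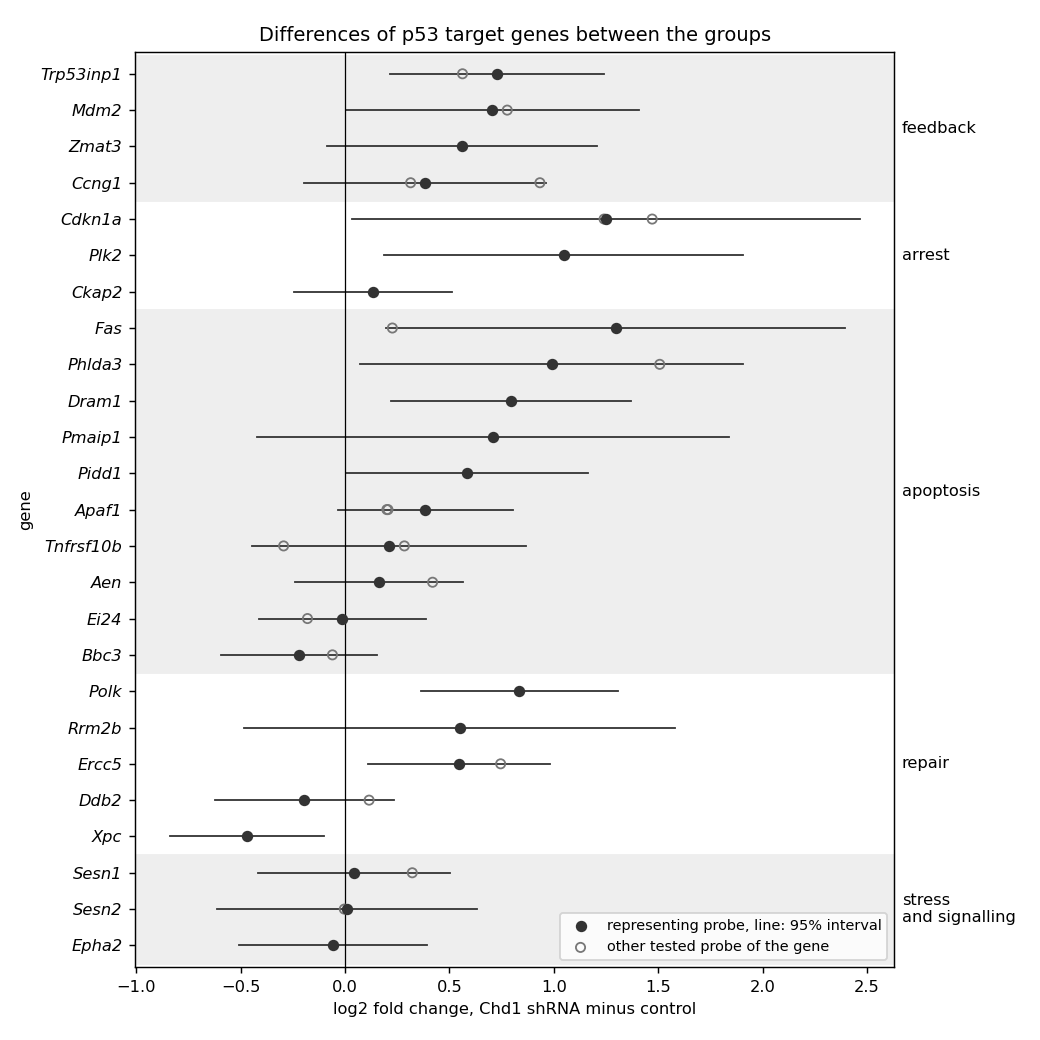
Log2 fold change, Chd1 shRNA minus control (horizontal axis), of the 25 tested p53 targets by role (vertical axis). Filled points are the probe that represents the gene with its 95% interval, and open points are the gene's other tested probes. The 3 Cdkn1a probes lie together between 1.24 and 1.47, whereas the Fas probes lie at 0.23 and 1.30.

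The repair targets went in both directions, and Rrm2b had a far wider spread within the shRNA group than the other members of this role. Polk encodes DNA polymerase kappa, which copies past damaged bases. It read 4.91, 5.32 and 5.47 in the controls against 6.06, 6.27 and 5.88 in the shRNA samples. Every shRNA sample was above every control. The log2 fold change of Polk was 0.83 (SE 0.209, 95% interval 0.36 to 1.31, limma adjusted p = 0.271), or 1.78 times the control level. Leaving out each sample in turn gave values from 0.67 to 0.95. Without background correction it was 0.31 for Polk and also 0.31 for Dram1, both of which are dim.

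Rrm2b, the p53-induced small subunit of ribonucleotide reductase, read 4.79, 4.54 and 6.06 in the controls against 4.81, 6.03 and 6.20 in the shRNA samples. Control replicate 3 was among the high samples and Chd1 shRNA replicate 1 among the low ones. Its log2 fold change was 0.55 (SE 0.456, 95% interval -0.48 to 1.58, limma adjusted p = 0.669). It was 0.19 without background correction. Rrm2b was detected on 1 control and 3 shRNA arrays, so it passed the filter only through the group where it read higher, and the other 24 tested members on all 6.

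Ercc5, the endonuclease that cuts on the 3′ side of a lesion in nucleotide excision repair, read 7.67, 8.12 and 7.63 in the controls against 8.37, 8.27 and 8.42 in the shRNA samples. The groups did not overlap, and the log2 fold change was 0.55 (SE 0.193, limma adjusted p = 0.400), with 0.75 from the second probe. Xpc, which recognises lesions in the same pathway, read 8.03, 7.90 and 7.92 in the controls against 7.52, 7.49 and 7.43 in the shRNA samples. All its shRNA samples were below all its controls. The log2 fold change of Xpc was -0.47 (SE 0.164, 95% interval -0.84 to -0.10, limma adjusted p = 0.398), with values from -0.49 to -0.43 when each sample was left out in turn, and -0.16 with median scaling. Ddb2, the damage sensor that hands lesions to Xpc, had a log2 fold change of -0.20, and its other probe gave 0.12.

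The median log2 fold change of the repair targets, 0.55 over 5 genes, is a description only. It was 0.18 over probes detected on all 6 arrays, which leaves out Rrm2b, 0.19 without background correction and 0.010 with fibroblast marker level as a covariate. It was 0.25 without control replicate 2 and 0.29 without Chd1 shRNA replicate 3.

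The stress and signalling targets had log2 fold changes near 0 by the brightest tested probe of each gene, between -0.058 and 0.045. Sesn1, a sestrin that restrains the growth kinase mTORC1, read 8.33, 8.60 and 8.71 in the controls against 8.89, 8.44 and 8.45 in the shRNA samples. The groups overlapped, and the log2 fold change of 0.045 had a 95% interval from -0.41 to 0.50. The other tested Sesn1 probe gave 0.32, also with overlapping groups. Epha2, an ephrin receptor, read 7.69, 7.27 and 7.38 in the controls against 7.50, 7.52 and 7.13 in the shRNA samples, with a log2 fold change of -0.058 (95% interval -0.51 to 0.39). Its highest value was in a control and its lowest in an shRNA sample, and the groups overlapped. Sesn2, the second sestrin, had a log2 fold change of 0.0084 (95% interval -0.61 to 0.63). Trp53, the apoptosis gene Bax and the secreted stress factor Gdf15 have no probe under their symbols and are not analysed here.

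The median spread within groups was wider for the members than for all named genes, but not in every role. The median within-group SD of log2 intensity was 0.269 in control and 0.377 in Chd1 shRNA samples for the 25 members, against 0.244 and 0.230 for all named genes. In the arrest group it was 0.694 and 0.568, which over 3 genes are the values of Plk2. It was 0.418 and 0.399 in the feedback group, and 0.269 and 0.112 in the repair group. The apoptosis group, at 0.187 and 0.329, and the stress and signalling group, at 0.216 and 0.262, were below all named genes in the controls and above them in the shRNA samples. Control replicate 3 was the highest control for 13 members, or 52%, against 35.6% of all named genes. Chd1 shRNA replicate 1 was the lowest shRNA sample for 12 members, or 48%, against 33.8% of all named genes.

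Those 2 samples crossed for several members, including those with the largest fold changes. Control replicate 3 exceeded the mean of the other controls by 1.82 on the log2 scale for Cdkn1a, 1.20 for Plk2, 1.06 for Phlda3 and 1.02 for Fas. Chd1 shRNA replicate 1 differed from the mean of the other shRNA samples by -1.33 for Cdkn1a, -0.98 for Plk2, -1.30 for Phlda3 and -1.66 for Fas. In Polk, Ercc5 and Xpc the same difference of Chd1 shRNA replicate 1 was -0.015, 0.024 and 0.066. The other members whose groups did not overlap varied. It was -0.81 for Dram1, -0.62 for Trp53inp1, -0.25 for Pidd1, 0.040 for Apaf1 and 0.13 for Bbc3.

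Without control replicate 3 the log2 fold change of Cdkn1a was 1.86, without Chd1 shRNA replicate 1 it was 1.70, and over all 6 such fits it was between 0.80 and 1.86. No member passed an adjusted p of 0.05 in any of them.

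Fibroblast markers had the same crossing of control replicate 3 and Chd1 shRNA replicate 1. Of 28 markers, 20 were tested, and 19 of these had a positive log2 fold change, with a median of 0.91. Their summed linear intensity was 9276, 8871 and 24720 in the controls against 15520, 29270 and 32100 in the shRNA samples. Control replicate 3 was thus above Chd1 shRNA replicate 1, as it was for Cdkn1a. It was the highest control for all 20 tested markers, and Chd1 shRNA replicate 1 was the lowest shRNA sample for 19. The tested markers with the highest means were Acta2, smooth muscle actin, with a log2 fold change of 1.09, and Bgn, the matrix proteoglycan biglycan, with 1.13. Col1a2, Col5a2 and Postn were detected on 0 arrays, Col3a1, S100a4, Pdgfrb and Cald1 on too few to be tested, and Fbn1 has no probe under its symbol. In RNA of mixed cells, fewer cells of a type and less RNA per cell cannot be told apart.

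The role groups can be set beside these markers array by array, as the median difference from each gene's mean over 6 arrays. The arrest targets gave -0.96, -0.88 and 0.28 in the controls against -0.13, 0.86 and 0.84 in the shRNA samples. With only 3 tested arrest genes, these medians are the values of 1 gene, Plk2. Cdkn1a had the same crossing, but Ckap2 did not, with Chd1 shRNA replicate 1 0.13 above control replicate 3. The fibroblast markers gave -0.75, -0.93 and 0.33, and then -0.25, 0.59 and 0.84. Both lists thus had control replicate 3 above Chd1 shRNA replicate 1. The feedback median had the same crossing with smaller values, at 0.025 for control replicate 3 and -0.11 for Chd1 shRNA replicate 1. So did the apoptosis median, at 0.021 and -0.081. Within these groups, Chd1 shRNA replicate 1 lay above control replicate 3 for Trp53inp1, Zmat3, Apaf1, Aen, Pidd1 and Dram1. It lay below for the other tested genes of both groups. The repair median did not cross, at -0.17 and -0.0038, but control replicate 3 was above Chd1 shRNA replicate 1 for Rrm2b and Xpc.

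**Figure D3:**
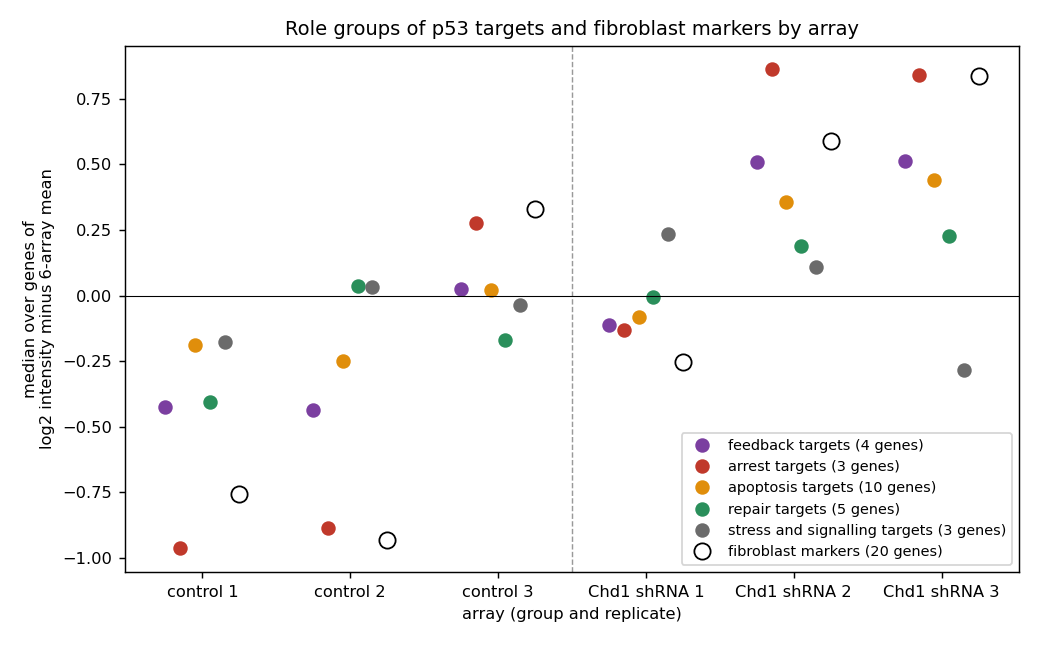
Median over the genes of each role group, and over 20 fibroblast markers, of log2 intensity relative to the gene's 6-array mean (vertical axis), for each array (horizontal axis). Points are offset sideways within an array for legibility. The median of the 3 arrest targets, which is the value of Plk2, and that of the fibroblast markers are both lowest in control replicates 1 and 2. Both are highest in Chd1 shRNA replicates 2 and 3.

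With the mean log2 level of the 20 fibroblast markers as a covariate in the limma fit, an alternative to the comparison above, the member median was 0.12 and 18 of 25 members were positive. The log2 fold change was then 0.092 for Cdkn1a, 0.096 for Mdm2, 0.24 for Plk2, 0.12 for Phlda3 and 0.32 for Fas. It was -0.080 for Ccng1, -0.24 for Pmaip1 and -0.46 for Rrm2b. Among the members whose groups did not overlap it was 0.71 for Polk, 0.67 for Ercc5, 0.56 for Trp53inp1, 0.48 for Dram1, 0.32 for Apaf1, 0.28 for Pidd1, -0.18 for Bbc3 and -0.43 for Xpc. For those that read higher, absence of overlap already excludes the crossing of control replicate 3 and Chd1 shRNA replicate 1 seen in the covariate. How far they kept their values is therefore partly set by that grouping. At an unadjusted p under 0.05 only Polk and Ercc5 were left, where 3.89% of all named genes were higher, and the smallest adjusted p of a member was 0.519.

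**Figure D4:**
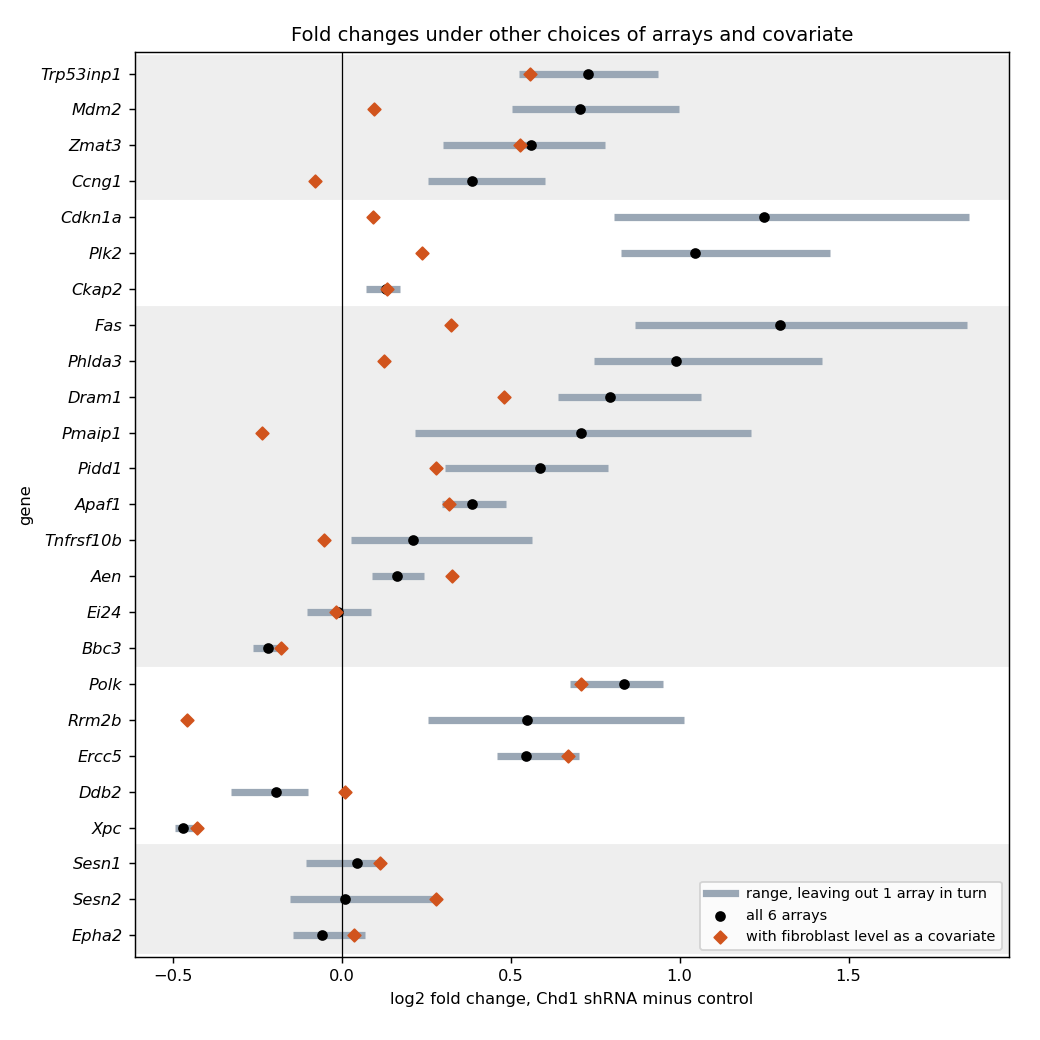
Log2 fold change, Chd1 shRNA minus control (horizontal axis), of the 25 tested p53 targets (vertical axis, in the order of the roles). Black points use all 6 arrays, grey bars span the values when 1 array was left out in turn, and orange diamonds have the fibroblast marker level as a covariate. The diamond of Cdkn1a is at 0.092 and its black point at 1.25, while those of Polk are at 0.71 and 0.83.

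Markers of pluripotent cells were tested for 13 of 13 genes, and 11 had a negative log2 fold change, with a median of -0.34. Their summed intensity was 62320 to 67560 in control and 54200 to 62050 in Chd1 shRNA samples. The brightest marker, Dppa5a, weighs most in this sum. It read an identical 15.18 in control replicates 1 and 3 and Chd1 shRNA replicate 3. The sum therefore says little about the dimmer markers. The markers with the highest means, Dppa5a and Esrrb, had log2 fold changes of -0.029 and -0.44. Nanog, named because the background mentions it, was among the positive markers, at 0.17 with overlapping groups. Summed markers of extraembryonic endoderm, 4 of 8 tested with Gata4, Sox17 and Afp on 0 arrays, were 301.9 to 330.3 in control and 283.6 to 401.6 in Chd1 shRNA samples. Those of trophectoderm, 5 of 8 tested with Eomes, Elf5 and Hand1 on 0 arrays, were 1068 to 1833 and 748.3 to 1399. No marker of blood cells could be tested out of 8 listed. The part of these lists in the p53 target values was not tested.

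Genes that act on p53 from upstream had smaller values in both directions. Of 25 regulators of p53 (kinases, ubiquitin ligases and cofactors), 19 were tested, 11 with a positive and 8 with a negative log2 fold change, and the median was 0.012. At an unadjusted p under 0.05 in limma, 4.76% of all named genes were higher and 6.33% lower, against 0 of the 19 regulators in either direction. Groups did not overlap for 7.03% (higher) and 9.38% (lower) of all named genes, and for 0 of the regulators. The largest values were 0.39 for Ppp1r13b, a cofactor of p53 in apoptosis, and -0.37 for Chek2, a kinase that phosphorylates p53 after DNA breaks.

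A second list of 24 further p53 targets, outside the 31 members, had 19 tested genes, of which 14 were positive and 5 negative, with a median of 0.11. At an unadjusted p under 0.05 in limma, 0 of the 19 were higher and 0 lower, where 4.76% of all named genes were higher and 6.33% lower. Groups did not overlap for 7.03% (higher) and 9.38% (lower) of all named genes, and for 0 of these further targets. The largest log2 fold changes were 0.86 for Dcxr, a carbonyl reductase, and 0.82 for Ephx1, the microsomal epoxide hydrolase. Dcxr read 9.23 in control replicate 3 and 8.48 in Chd1 shRNA replicate 1, and Ephx1 read 10.14 and 8.92 in the same samples. In both genes, as in Cdkn1a, that control was above that shRNA sample.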

How the data were processed

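Total RNA of 3 control and 3 Chd1 shRNA samples was labelled with biotin and read on Illumina bead arrays. The deposited table gives each probe's unnormalized intensity and its detection p-value per array, made with GenomeStudio per the submitters' processing notes (version not given in the sources used here). A second deposited table of intensities processed by the authors was used only as an alternative.

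Background was corrected with normexp, the control mean and variance being inferred from the detection p-values, with an offset of 16. Values were log2-transformed and quantile-normalized (neqc in limma 3.58.1, R 4.3.3). An offset shrinks differences of dim probes, and quantile normalization removes shifts common to an array. Probes were kept if detected (p under 0.05) on 3 or more arrays, and tested with limma (lmFit and eBayes, two-sided), with Benjamini-Hochberg adjustment over all 16018. A gene is represented by its tested probe with the highest mean. The annotation gave 1 symbol for 34885 probes, several for 18 and none for 10378. The script was also tested on simulated data. The exact two-sided permutation test over samples cannot go below p = 0.1 with 3 against 3, so no member was tested that way.

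Members and lists were chosen with earlier results of these data known. Arrays are given in full for Cdkn1a, Mdm2 and the 2 other members of each role with the largest absolute log2 fold change. Of each further list, the 2 largest changes or, for markers, the 2 highest means are named, and Nanog in addition. Replicates were numbered in accession order, which pairs no samples. Alternatives were other background corrections, scalings, filters, variance models, probe choices, the authors' table, a fibroblast covariate and leaving out each sample. The number of arrays limits the precision. Promoters are from RefSeq.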

Additional observations from a re-analysis of the deposited data

How the results depend on the processing

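Of 424 log2 fold changes of the 25 members over all alternatives, 22 changed sign, none passed an adjusted p of 0.05, and 15 genes kept their sign throughout. These 424 include values that repeat the main ones. The other detection filters, the intensity trend with robust variance and the fit of 1 probe per gene left members' fold changes as they were. The share that changed sign is therefore not a measure of stability. With 3 arrays a group, only differences well above the spread within groups could pass, and values of dim probes shrank without background correction, to 0.67 for Fas, 0.31 for Polk, 0.31 for Dram1, 0.28 for Pidd1, 0.43 for Pmaip1, 0.70 for Plk2 and 0.19 for Rrm2b. The count of probes called over the whole array was 0, except 1 with median scaling, 31 with an intensity trend and robust variance and 1 with array weights. None of these was a member.

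The member median was 0.31 without background correction, 0.31 in the authors' table and 0.12 with the fibroblast covariate. Median scaling, which moves the median of all probes to 0.21, gave 0.75. Leaving out 1 sample gave 0.29 to 0.59.

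With the fibroblast covariate the median was 0.31 for feedback, 0.13 for arrest, 0.20 for apoptosis and 0.010 for repair targets. Median scaling gave 0.79 for apoptosis, 0.75 for repair and 0.32 for stress and signalling targets. The repair median was 0.30 with an offset of 50, 0.19 without background correction, 0.19 in the authors' table and 0.18 with probes detected on all 6 arrays. Leaving out 1 sample put it between 0.25 and 0.54.

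The sign turned with the fibroblast covariate for Ccng1 (-0.080), Pmaip1 (-0.24), Tnfrsf10b (-0.052), Ddb2 (0.010), Rrm2b (-0.46) and Epha2 (0.037). It turned with median scaling for Bbc3 (0.097), Ei24 (0.26), Ddb2 (0.088) and Epha2 (0.24), with scaling to the 75th percentile for Ei24 (0.055) and Epha2 (0.028), and with array weights for Sesn1 (-0.015). Leaving out 1 sample gave -0.10 to 0.085 for Ei24, -0.11 to 0.13 for Sesn1, -0.15 to 0.28 for Sesn2 and -0.15 to 0.069 for Epha2. The cause was not tested. No paired analysis was possible because the replicate numbers were given in accession order.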
